A study of Mus musculus with 2 samples.

Results

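Interferon-stimulated genes were followed in mouse muscle stem cells (MuSCs) through 9 genes, namely Isg15, Ifit1, Ifit3, Iigp1, Ifi27l2a, Irf7, Bst2, Rsad2 and Irf1. They were chosen by symbol, through the Ensembl identifier of each row, from the 20830 genes of one short-read table and the 26997 genes of the other, and all 9 were found in both tables. The choice was made with their levels in these tables in view, so the values below describe the genes and no test was run on them.

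Interferons bind receptors on the cell surface, Janus kinases then phosphorylate STAT proteins, and a complex of STAT proteins with IRF9 enters the nucleus and binds the interferon-stimulated response element (ISRE) in the promoters of responsive genes. Interferon gamma acts mainly through another element, the gamma-activated site (GAS). The proteins that result detect viral RNA, block translation or the release of virus, and present antigen, and many of these genes also have a basal level in cells that have met no virus.

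The cells came from Pax7creERT2 R26-eYFP fl/fl mice on a C57BL6 background, in which tamoxifen, given on 5 days at 3 months of age, makes Pax7-expressing cells turn on YFP. Muscles of the hindlimb were taken 2 weeks after the last dose, and cells were sorted on YFP. Quiescent cells came from uninjured muscle, and activated cells came from muscle 72 hours after injection of 1.2% barium chloride, a salt that injures muscle fibres. The sorted quiescent and activated cells shared 1 capture on the 10x platform (3′ chemistry), and an aliquot of 10% of the GEMs (the droplets that each hold a cell and a barcoded bead) was handled apart from the other 90%. The labels give no number of mice and no replicates, the tables do not say which cell was quiescent or activated, and Cre driven by Pax7 limits the YFP sort to cells that expressed Pax7 at the time of tamoxifen and to their progeny.

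Shallow and deep sets of barcodes were therefore defined by their counts. Shallow barcodes have 3000 to 15000 UMIs (unique molecular identifiers, each standing for 1 captured RNA molecule) and 0 UMIs of the cell cycle genes Rrm2, Top2a and Cdk1. Deep barcodes have at least 20000 UMIs. The 10% table holds 157 shallow barcodes with 1114508 UMIs and a median of 6729, and 79 deep barcodes with 5099209 UMIs and a median of 65499. The 90% table holds 1243 shallow barcodes with 6452314 UMIs and a median of 4680, and 606 deep barcodes with 29875734 UMIs and a median of 47106. The shallow barcode with the most UMIs had 14713 and the deep barcode with the fewest had 20025, and barcodes between the limits belong to neither set. Levels are CPM, the UMIs of a gene over all UMIs of a set, scaled to a total of 1000000. The 3′ chemistry counts the ends of molecules, so a CPM value carries no correction for gene length. Levels carry exact Poisson 95% intervals and shares carry exact (Clopper-Pearson) 95% intervals, and both cover counting error only. In 1 capture, the number of cells of a kind and the RNA in each of them cannot be told apart in a summed level.

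The sets were checked against marker genes. Quiescence markers (10 genes, among them Calcr, Chrdl2 and Heyl) summed to 1248 CPM in shallow and 157 CPM in deep barcodes of the 10% table, and to 1521 and 173 CPM in the 90% table. Myod1, a transcription factor that marks activated MuSCs, was nevertheless higher in shallow barcodes. Its levels were 1106 and 185 CPM in shallow and deep barcodes of the 10% table and 1069 and 213 CPM in the 90% table. Other activation markers went the other way, with Pcna at 19.7 and 76.5 CPM, and at 31.2 and 114 CPM, in the same order. Myog, Mki67 and Ccnb1 were also higher in deep barcodes of both tables. Rrm2, Top2a and Cdk1 are 0 in shallow barcodes by the limit itself. The markers thus did not all point one way. The sets are therefore called shallow and deep, and not by cell state. Markers of cells that a YFP sort should leave out were found as single markers in many deep barcodes and together in few. At least 1 marker had a UMI in 16 of 79 and 118 of 606 deep barcodes for the immune list, 23 and 170 for the endothelial list, 21 and 155 for the fibro-adipogenic list and 39 and 244 for the pericyte and smooth muscle list, in the 10% and the 90% table. The immune markers (14 of 15 listed were in the tables) summed to 517 and 119 CPM in shallow and deep barcodes of the 10% table and to 345 and 6.76 CPM in those of the 90% table, and at least 2 of them had a UMI in 1 of 157 and 7 of 79 barcodes and in 8 of 1243 and 21 of 606 barcodes, in that order. Ptprc, which encodes the CD45 antigen of white blood cells, had 0 UMIs in the shallow barcodes of the 10% table, as did C1qa, C1qc, Csf1r, Coro1a and S100a8, and H2-Aa had 0 in its deep barcodes, while in the 90% table each immune marker had a UMI in both sets.

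The tables shared barcodes. All 157 shallow and all 79 deep barcodes of the 10% table also appeared in the 90% table, where they made up part of the 243 of 1243 shallow and 207 of 606 deep barcodes found in both. Their total UMIs in the 90% table were a median of 0.817 and 0.804 times those in the 10% table. A shallow barcode of the 10% table correlated with the same barcode of the 90% table at a median r of 0.929 and with other barcodes at 0.701, and its best match was itself for 153 of 157. For deep barcodes these values were 0.962 and 0.804, with 79 of 79. The 9 genes behaved alike. Over these 236 barcodes they had 1973 UMIs in the 10% table and 1918 in the 90% table, and 107 barcodes had a UMI of at least 1 of them in both, 2 in the 10% table only and 5 in the 90% table only. The tables are therefore not independent, and values are also given for the 1000 shallow and 399 deep barcodes of the 90% table that were not in the 10% table (called unshared below).

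RefSeq promoters (GRCm38.p6) could be matched to 7 of the 9 genes and are shown for the 6 in which a search found the letters of an ISRE-like or a GAS-like element. The window runs from 160 to 41 bases before the transcription start, on the strand of the gene, 5′ to 3′. Capitals mark 2 copies of GAAA with any 2 bases between them (ISRE-like, searched on both strands, so that the copies read TTTC on the other) and TTCNNNGAA (GAS-like, the same on both strands).
Isg15 (chr4:156200859-156200978, minus strand): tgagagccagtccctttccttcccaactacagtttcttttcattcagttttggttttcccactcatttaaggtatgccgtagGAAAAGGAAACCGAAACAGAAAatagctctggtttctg
Ifit1 (chr19:34640729-34640848, plus strand): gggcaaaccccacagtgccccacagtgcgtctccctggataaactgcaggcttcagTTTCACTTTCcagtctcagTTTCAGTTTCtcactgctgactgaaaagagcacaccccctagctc
Ifit3 (chr19:34583369-34583488, plus strand): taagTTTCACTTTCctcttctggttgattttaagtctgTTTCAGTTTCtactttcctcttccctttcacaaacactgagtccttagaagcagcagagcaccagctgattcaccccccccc
Bst2 (chr8:71537513-71537632, minus strand): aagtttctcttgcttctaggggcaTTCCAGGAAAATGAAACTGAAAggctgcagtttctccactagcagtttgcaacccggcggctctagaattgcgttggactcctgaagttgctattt
Rsad2 (chr12:26456493-26456612, minus strand): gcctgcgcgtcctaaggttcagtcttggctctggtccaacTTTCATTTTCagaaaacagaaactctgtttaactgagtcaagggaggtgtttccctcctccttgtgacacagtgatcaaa
Irf1 (chr11:53769854-53769973, plus strand): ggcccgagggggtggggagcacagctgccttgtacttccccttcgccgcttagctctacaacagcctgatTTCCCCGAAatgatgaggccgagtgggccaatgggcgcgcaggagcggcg

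Isg15 held 3 overlapping ISRE-like matches, beginning 78, 72 and 66 bases before the start, which read as 1 run of capitals. Bst2 held 2 overlapping ISRE-like matches, which begin at 130 and 124 bases before the start and overlap a GAS-like match that begins at 136. Ifit1 and Ifit3 held 2 each, with the same letters in the same order, although the pairs lie at different distances from the start. Rsad2 held 1. Irf1, which has 2 promoters in the table, held a GAS-like match and no ISRE-like match in the first of them and neither in the second. Irf7 had neither in its window, which says only that these letters are not there. Of all 32851 promoters, from 250 bases before to 50 bases after the start, 1131 (3.44%) held the ISRE-like letters, 74 (0.225%) held them at least 2 times and 2726 (8.30%) held the GAS-like letters. Of the 7 genes matched, 5 held the ISRE-like letters and 4 of these held them at least 2 times. A match is a description of the letters and says nothing of a factor bound there.

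**Figure D1:**
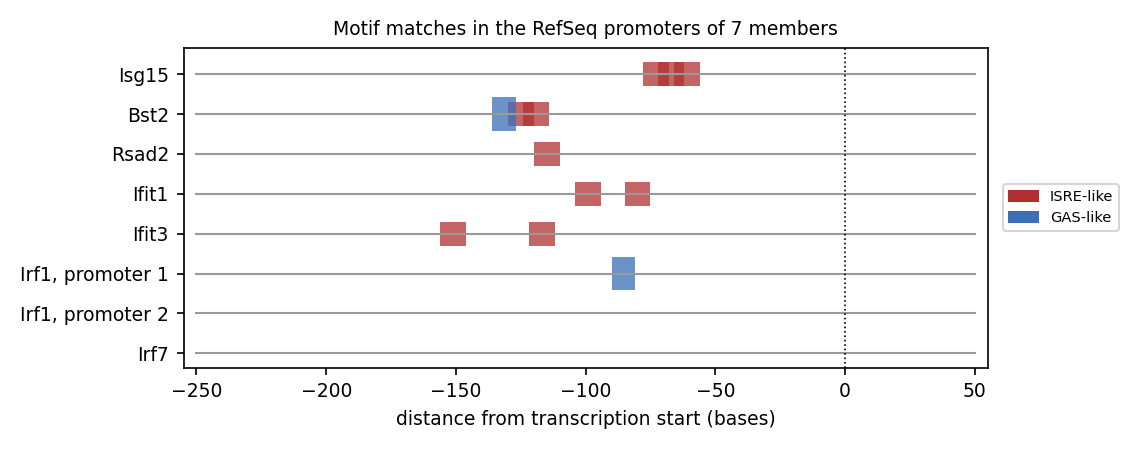
Positions of ISRE-like (red) and GAS-like (blue) matches in the RefSeq promoters of 7 of the genes, with the distance from the transcription start in bases on the horizontal axis. Matches of Isg15, Bst2, Rsad2, Ifit1 and Ifit3 begin between 156 and 66 bases before the start, and Irf1 has a GAS-like match in its first promoter, and Irf7 and the second Irf1 promoter have none.

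Bst2 encodes tetherin, a membrane protein that holds budding virus at the cell surface, and it was the gene with the most UMIs of the 9 in both sets of both tables. In deep barcodes it had 1133 UMIs (222 CPM, 209 to 236) in the 10% table and 6049 UMIs (202 CPM, 197 to 208) in the 90% table. In shallow barcodes it had 63 UMIs (56.5 CPM, 43.4 to 72.3) and 444 UMIs (68.8 CPM, 62.6 to 75.5). Deep barcodes were thus higher by 3.93 times in the 10% table, by 2.94 times in the 90% table and by 3.37 times in unshared barcodes, and the intervals of the sets did not overlap in any of the 3 comparisons. Bst2 was also the only member found in most deep barcodes. It had a UMI in 94.9% of them in the 10% table and in 87.6% in the 90% table, with a median of 9 and 6 UMIs per barcode and a highest value of 61 and 87, against 10.2% and 8.93% of shallow barcodes.

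Isg15 encodes a ubiquitin-like protein that is joined to other proteins after interferon. It had 51 UMIs (45.8 CPM, 34.1 to 60.2) in shallow and 242 UMIs (47.5 CPM, 41.7 to 53.8) in deep barcodes of the 10% table, values whose intervals overlap. In the 90% table it had 171 UMIs (26.5 CPM, 22.7 to 30.8) in shallow and 1383 UMIs (46.3 CPM, 43.9 to 48.8) in deep barcodes. The deep level was therefore nearly the same in both tables while the shallow level differed, and in unshared barcodes the shallow level was lower again, at 19.3 CPM against 48 CPM in deep barcodes. Of the 51 UMIs in shallow barcodes of the 10% table, 15 (29.4%) came from the 1 barcode with at least 2 immune markers.

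Rsad2 encodes viperin, an enzyme that makes a nucleotide that stops viral polymerases. It was higher in deep barcodes of the 90% table, with 302 UMIs (10.1 CPM, 9.0 to 11.3) against 16 UMIs (2.48 CPM, 1.42 to 4.03) in shallow barcodes, a ratio of 4.08. In the 10% table only 2 UMIs were counted in shallow barcodes (1.79 CPM) and 33 in deep barcodes (6.47 CPM). The interval of the ratio runs from 0.922 upward, so a difference was not detectable with so few UMIs. Both of the UMIs in shallow barcodes there came from the 1 immune-marked barcode. In unshared barcodes the ratio was 5.0, from 11 and 202 UMIs.

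Ifit1 and Ifit3 encode proteins with tetratricopeptide repeats that bind viral RNA or its partners and hold back its translation. Ifit1 had 5 UMIs (4.49 CPM) in shallow and 13 UMIs (2.55 CPM) in deep barcodes of the 10% table, and 56 (8.68 CPM, 6.56 to 11.3) and 196 (6.56 CPM, 5.67 to 7.55) in the 90% table. Ifit3 had 2 UMIs (1.79 CPM) and 10 UMIs (1.96 CPM) in the 10% table, and 16 (2.48 CPM, 1.42 to 4.03) and 95 (3.18 CPM, 2.57 to 3.89) in the 90% table. Neither gene differed between the sets beyond counting error in either table, and Ifit3 was the lowest of the 9 in deep barcodes. Ifit1 was carried by few barcodes. It had a UMI in 12 of 1243 shallow barcodes, and 1 barcode of 3181 UMIs held 21 of its 56 UMIs there.

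Iigp1 encodes an interferon-inducible GTPase that acts on the vacuoles of intracellular pathogens, and Ifi27l2a encodes a small hydrophobic protein of the interferon-inducible Ifi27 family. Iigp1 had 6 UMIs (5.38 CPM) in shallow and 39 UMIs (7.65 CPM, 5.44 to 10.5) in deep barcodes of the 10% table, and 83 (12.9 CPM, 10.2 to 15.9) and 179 (5.99 CPM, 5.15 to 6.94) in the 90% table. It was thus 2.15 times as high in shallow barcodes of the 90% table and pointed the other way in the 10% table, where the interval of the ratio includes 1. Of the 83 UMIs, 37 came from the 43 shallow barcodes of over 10000 UMIs, and the level in the other 1200 was 7.75 CPM. Deep barcodes without UMIs of Rrm2, Top2a and Cdk1 had 12.8 CPM, close to the shallow level. Ifi27l2a had 56 UMIs (50.2 CPM, 38 to 65.2) in shallow and 173 UMIs (33.9 CPM, 29.1 to 39.4) in deep barcodes of the 10% table, and 429 (66.5 CPM, 60.3 to 73.1) and 374 (12.5 CPM, 11.3 to 13.9) in the 90% table. It was concentrated in few barcodes, as were Ifit1, Ifit3 and Iigp1. Only 4 of 157 and 31 of 1243 shallow barcodes had a UMI of it, and 2 and 7 barcodes held at least 50% of its UMIs. Its shallow level was 1.48 times the deep level in the 10% table and 5.31 times in the 90% table, and in the latter 193 of its 429 UMIs (45.0%) came from the 8 shallow barcodes with at least 2 immune markers. The direction in the 10% table turned with shallow barcodes of 3000 to 10000 UMIs, at 12.7 CPM against 33.9 CPM in deep barcodes, and against deep barcodes without UMIs of Rrm2, Top2a and Cdk1, at 299 CPM. Without immune-marked barcodes its levels in the 10% table were 30.0 CPM in shallow and 29.0 CPM in deep barcodes, and 37.0 and 12.5 CPM in the 90% table.

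Irf7 and Irf1 encode the transcription factors of the list. IRF7 drives the later wave of type I interferon genes, and IRF1 is a factor that answers interferon gamma early. Irf7 had 15 UMIs (13.5 CPM, 7.53 to 22.2) in shallow and 89 UMIs (17.5 CPM, 14.0 to 21.5) in deep barcodes of the 10% table, and 126 (19.5 CPM, 16.3 to 23.3) and 421 (14.1 CPM, 12.8 to 15.5) in the 90% table. The higher shallow level in the 90% table went with immune-marked barcodes, which held 50 of the 126 UMIs, and without them the levels were 11.9 CPM in shallow and 13.8 CPM in deep barcodes. Irf1 had 6 UMIs (5.38 CPM) and 35 UMIs (6.86 CPM, 4.78 to 9.55) in the 10% table, and 53 (8.21 CPM, 6.15 to 10.7) and 224 (7.50 CPM, 6.55 to 8.55) in the 90% table, so its sets did not differ beyond counting error. In shallow barcodes of the 90% table, 17 of its 53 UMIs came from 5 barcodes with at least 3 of 10 endothelial markers.

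In deep barcodes of the 90% table the order of the 9 levels in CPM was therefore Bst2, Isg15, Irf7, Ifi27l2a, Rsad2, Irf1, Ifit1, Iigp1 and Ifit3. The intervals of neighbours overlapped between Irf7 and Ifi27l2a, between Ifi27l2a and Rsad2, between Irf1 and Ifit1 and between Ifit1 and Iigp1, and did not overlap at the other steps. In shallow barcodes of that table Bst2 (68.8 CPM) and Ifi27l2a (66.5 CPM) led and their intervals overlapped.

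**Figure D2:**
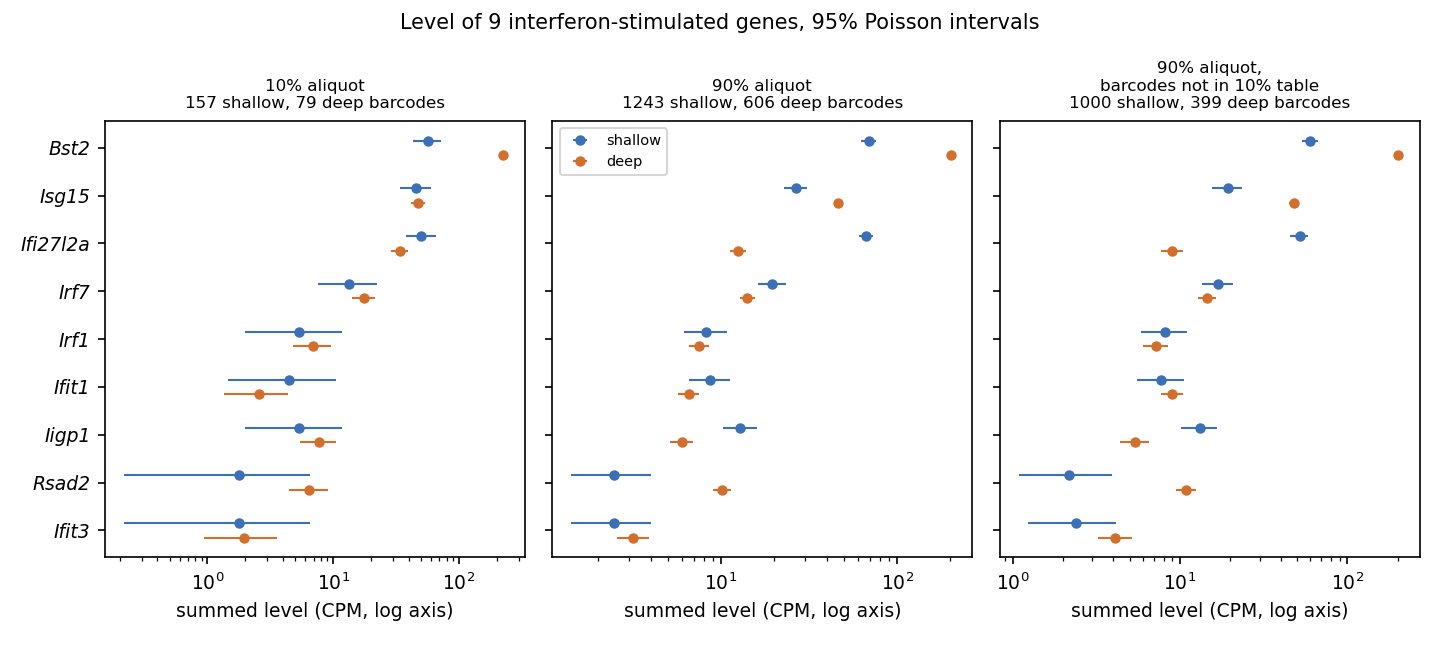
Level of each gene in CPM (log axis) in shallow (blue) and deep (orange) barcodes, with exact Poisson 95% intervals, in the 10% table, the 90% table and the unshared barcodes of the 90% table. Deep barcodes are higher for Bst2 in every panel (222 against 56.5 CPM in the 10% table), while Ifi27l2a is higher in shallow barcodes, by 5.31 times in the 90% table and by 1.48 times in the 10% table, where the direction turns without shallow barcodes of over 10000 UMIs.

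Near-empty barcodes of under 500 UMIs were used to gauge the level of these genes in RNA that is not from a captured cell (free RNA). The 1612 such barcodes of the 10% table had a median of 16 UMIs and held 13 UMIs of the 9 genes among 49698 (262 CPM, 139 to 447), and the 391 of the 90% table had a median of 234 UMIs and held 51 UMIs among 98986 (515 CPM, 384 to 677). Bst2 accounted for 9 and 15 of these, at 181 CPM (82.8 to 344) and 152 CPM (84.8 to 250), both above its level in shallow barcodes. These intervals also include its levels in deep barcodes, 222 and 202 CPM. At least 3 endothelial markers had a UMI in 3 of the 391 near-empty barcodes of the 90% table. At least 2 immune markers had a UMI in 1 of them, and both counts were 0 in the 10% table. Of the near-empty barcodes, 255 of 1612 in the 10% table and 48 of 391 in the 90% table also appeared in the other table. They may therefore include barcodes of captured cells. Whether near-empty barcodes hold only free RNA was not tested. If they do, scattered single UMIs of Bst2 in shallow barcodes cannot be told apart from free RNA. Neither can scattered single UMIs of the other genes, whereas barcodes with many UMIs of several members can. Of the 111 shallow barcodes with Bst2 in the 90% table, 13 had at least 10 UMIs of it, and the highest value was 34.

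Summed over the 9 genes, deep barcodes had 347 CPM (331 to 363) and shallow barcodes 185 CPM (160 to 212) in the 10% table, and 309 CPM (302 to 315) and 216 CPM (205 to 228) in the 90% table. Bst2 set this direction: without it the log2 ratio of shallow to deep changed from -0.91 to 0.05 in the 10% table and from -0.51 to 0.47 in the 90% table. Of the 9 genes, 2 (Bst2 and Rsad2) were at least 2-fold higher in deep barcodes in both tables and none was at least 2-fold higher in shallow barcodes in both. Among the 12107 genes with at least 10 UMIs over both sets in each table, 22% were at least 2-fold higher in deep barcodes in both tables and 13.8% in shallow barcodes, where a count of 0 was set at 3 UMIs. The share of the 9 genes that rose in deep barcodes is thus close to that background. The median log2 ratio of shallow to deep was -0.35 and 0.13 for the 9 genes in the 10% and the 90% table, and -0.22 and -0.31 for all genes.

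The UMIs of shallow barcodes came from few of them. Shallow barcodes of over 10000 UMIs were 21 of 157 (13.4%) in the 10% table and held 58.3% of the UMIs of the 9 genes, at 478 CPM against 99.6 CPM in the other 136. In the 90% table they were 43 of 1243 (3.46%) and held 43.5%, at 1176 CPM against 133 CPM. Immune-marked barcodes held 73 of 206 UMIs (35.4%, 1 barcode) in the 10% table and 372 of 1394 UMIs (26.7%, 8 barcodes) in the 90% table, and without them the summed shallow level was 121 and 160 CPM. The 5 endothelial-marked shallow barcodes of the 90% table held another 83 UMIs. In deep barcodes the immune-marked ones held 259 of 1767 UMIs and 484 of 9223, and the summed level without them was 334 and 304 CPM. The limit of 2 immune markers is not matched for depth. At least 5 immune markers had a UMI in all of the 1 and 8 immune-marked shallow barcodes, but in only 1 of 7 and 1 of 21 immune-marked deep barcodes. Whether the other immune-marked deep barcodes are immune cells was not tested. The part of immune and endothelial cells in the shallow levels beyond the removal of their barcodes was not tested.

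Individual barcodes show how uneven the genes were. The shallow barcode with the most in the 90% table had 103 UMIs of the 9 genes among 11579, with 38 of Ifi27l2a, 34 of Bst2, 11 of Ifit1, 7 of Iigp1 and 6 of Isg15, and 0 immune markers. The next had 85 among 11556, with 37 of Ifi27l2a and 27 of Bst2, and 10 immune markers. The seventh had 53 among 4739, with 16 of Irf7, 14 of Bst2 and 10 of Iigp1, and 9 endothelial markers. The deep barcode with the most had 178 UMIs among 27852 and a UMI of all 9 genes, with 56 of Isg15, 43 of Bst2, 27 of Iigp1, 14 of Ifi27l2a and 12 of Rsad2, 0 immune markers and 15 UMIs of Rrm2. A single barcode of either set could thus hold many members at once, with or without markers of another cell type.

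Deep barcodes with 0 UMIs of Rrm2, Top2a and Cdk1, the limit that shallow barcodes meet, had more of the 9 genes than the other deep barcodes. The summed level was 819 CPM (717 to 932) in 9 such barcodes and 319 CPM (303 to 335) in the other 70 in the 10% table, and 636 CPM (593 to 682) in 35 and 294 CPM (288 to 301) in the other 571 in the 90% table. Isg15 was at 132 CPM in these 35 barcodes and 42.5 CPM in the other 571, and Bst2 at 344 and 196 CPM. Ifi27l2a made up 84 of the 230 member UMIs of these 9 barcodes in the 10% table. A single barcode with 12 immune markers held 41 of the 84 and 76 of the 230, and its part in the higher level was not tested.

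To compare shares at one depth, each barcode was thinned at random to 3000 UMIs, which left out none. At least 1 of the 9 genes then had a UMI in 14.6% (9.52 to 21.2) of shallow and 50.6% (39.1 to 62.1) of deep barcodes of the 10% table, in 12.0% (10.2 to 13.9) and 45.5% (41.5 to 49.6) in the 90% table, and in 11.6% and 42.6% in unshared barcodes. Without thinning the values were 20.4% and 97.5% in the 10% table and 15.5% and 91.1% in the 90% table. Bst2 made most of the difference. Its thinned share was 5.73% of shallow and 48.1% of deep barcodes in the 10% table, and 6.76% and 39.6% in the 90% table.

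Isg15 had a thinned share of 3.7% (2.72 to 4.91) of shallow and 11.7% (9.26 to 14.5) of deep barcodes in the 90% table, and of 7.01% (3.55 to 12.2) and 5.06% (1.40 to 12.5) in the 10% table, where the intervals overlap. Rsad2 was found in 0.402% of shallow and 2.81% of deep barcodes of the 90% table. The thinned shares of Ifit1, Ifit3, Iigp1, Ifi27l2a, Irf7 and Irf1 were between 0.495% and 3.47% in that table, with overlapping intervals of the sets. Ifi27l2a was therefore found about as often in both sets (2.09% and 2.48%) although its summed level was 5.31 times higher in shallow barcodes, and the difference lay in the number of UMIs per barcode that had it.

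**Figure D3:**
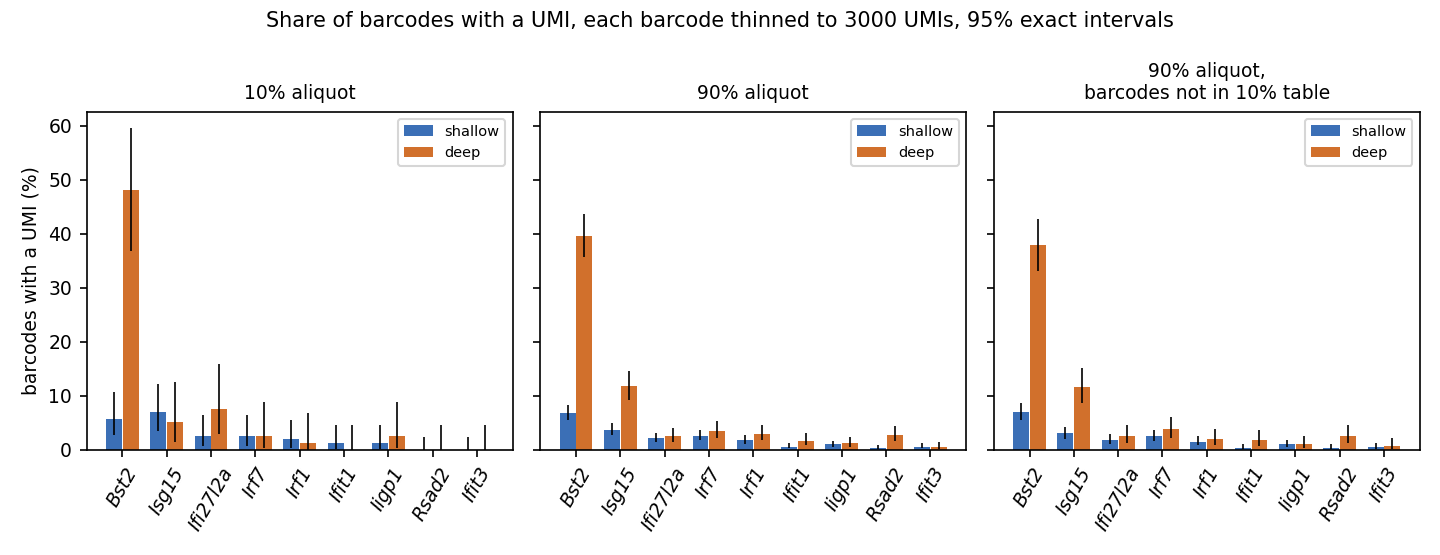
Share of shallow (blue) and deep (orange) barcodes with a UMI of each gene, in percent, after each barcode was thinned to 3000 UMIs, with exact 95% intervals, in the 10% table, the 90% table and its unshared barcodes. Bst2 stands apart, with 39.6% of deep and 6.76% of shallow barcodes of the 90% table, and the other 8 genes reach at most 11.7% in any panel.

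Members were counted within deep barcodes thinned to 20000 UMIs. Of the 606 barcodes of the 90% table, 103 (17.0%) had none of the 9, 252 (41.6%) had 1, and 31 (5.12%, 3.50 to 7.18) had at least 5. Of the 79 in the 10% table, 13 had none and 6 (7.59%, 2.84 to 15.8) had at least 5, and in unshared barcodes 76 of 399 had none and 21 (5.26%, 3.29 to 7.93) had at least 5. Of the 31 barcodes, 17 had at least 6 members and 1 had all 9. Without immune-marked barcodes 29 of 585 (4.96%) had at least 5.

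Every other member was found in a larger share of thinned deep barcodes with Isg15 than without it in the 90% table. A UMI of Isg15 was found in 156 thinned deep barcodes of the 90% table and in none of the other 450. Irf7 was found in 38.5% (30.8 to 46.6) of those with Isg15 and 5.11% (3.27 to 7.57) of those without. Ifit1 was found in 29 of the 156 (18.6%) and in 0 of the 450 (exact 95% bound 0.816%), so that every thinned deep barcode with Ifit1 also had Isg15. Ifit3 was found in 11.5% and 0.889%, Iigp1 in 15.4% and 1.78%, Rsad2 in 26.3% and 9.78%, Ifi27l2a in 14.1% and 5.56%, and Bst2 in 95.5% and 72.0%. Irf1 was found in 17.3% (11.7 to 24.2) and 10.2% (7.58 to 13.4), and it was the 1 gene whose intervals overlap.

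Unshared barcodes gave similar shares, with Irf7 in 41.7% of 96 barcodes with Isg15 and 4.95% of 303 without, and Ifit1 in 22 of 96 and 0 of 303. In the 10% table Irf7 was found in 10 of 23 deep barcodes with Isg15 and 5 of 56 without, and Irf1 in 4 of 23 and 9 of 56. Removing immune-marked barcodes from the 90% table left Irf7 at 39.3% and 4.83%.

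**Figure D4:**
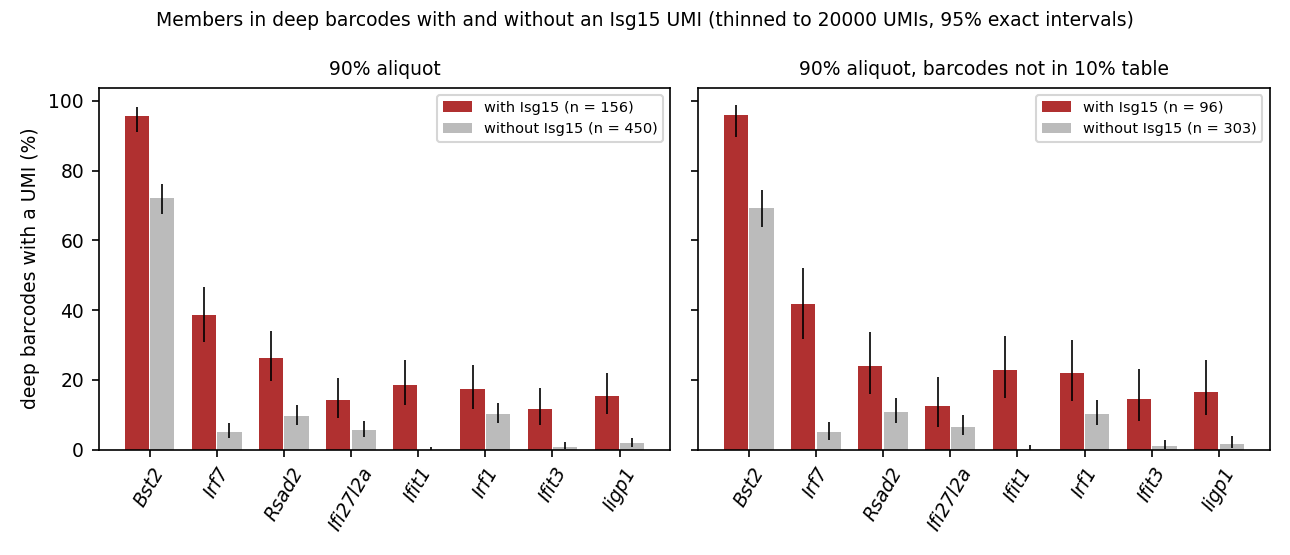
Share of deep barcodes (thinned to 20000 UMIs) with a UMI of each other gene, in percent, among barcodes with (red) and without (grey) an Isg15 UMI, with exact 95% intervals, in the 90% table and its unshared barcodes. Each gene is found more often beside Isg15, from 95.5% against 72.0% for Bst2 to 18.6% against 0 for Ifit1 in the 90% table.

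Correlations across these thinned deep barcodes, on log2(UMI + 1), describe the same pattern. All points come from 1 library and a fixed depth, and the counts are sparse. Against the sum of the other 8 genes, r over 606 barcodes was 0.56 for Isg15, 0.56 for Bst2, 0.47 for Irf7, 0.38 for Ifit1, 0.35 for Ifit3, 0.32 for Iigp1, 0.30 for Ifi27l2a, 0.27 for Rsad2 and 0.12 for Irf1. In the 79 deep barcodes of the 10% table r was between 0.22 and 0.59 for the first 8 and -0.11 for Irf1. Isg15 and Ifit1 (r = 0.59) and Ifit1 and Ifit3 (r = 0.59) were the closest pairs in the 90% table, followed by Iigp1 and Ifi27l2a (r = 0.53). In the 10% table, where Ifit1 was found in 3 and Ifit3 in 2 thinned barcodes, r between these genes was -0.03.

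The deep barcodes with at least 5 members in the 90% table also differed in genes outside the list, again as a description of barcodes chosen by the members. Irf9, a DNA-binding part of the complex that binds the ISRE, was at 30.0 CPM (20.8 to 41.9) in these 31 barcodes, 5.70 CPM (4.78 to 6.74) in the 472 with 1 to 4 members and 3.28 CPM (1.87 to 5.32) in the 103 with none. Usp18, a protease that removes ISG15 and dampens receptor signalling, was at 52.0, 5.20 and 0.614 CPM, and Oasl2, an antiviral protein of the oligoadenylate synthetase family, at 83.8, 8.51 and 1.23 CPM. B2m, the light chain of class I major histocompatibility molecules, was at 933, 377 and 228 CPM. In unshared barcodes with at least 5 members Irf9 was at 30.0 CPM and Usp18 at 60.1 CPM.

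These 31 barcodes had fewer UMIs than the others before thinning, with a median of 31128 against 48221 in those with 1 to 4 members and 46098 in those with none. Myod1 was at 146 CPM in them, 213 CPM with 1 to 4 members and 228 CPM with none, and Rrm2 at 150, 240 and 263 CPM. In the 10% table, where 6 barcodes had at least 5 members, the contrast was larger, with Myod1 at 4.01 CPM (0.101 to 22.3, 1 UMI), 196 CPM and 188 CPM and Rrm2 at 44.1, 138 and 135 CPM. A UMI of Rrm2, Top2a or Cdk1 was found in 24 of the 31 (77.4%), in 94.9% of those with 1 to 4 members and in 96.1% of those with none. Pax7, the transcription factor of MuSCs, was at 19.4 CPM (12.2 to 29.4) in the 31 and at 7.33 and 7.37 CPM in the others. Ptprc had 0 UMIs in the 31 barcodes, with an exact 95% bound of 3.25 CPM. It was at 0.168 CPM in those with 1 to 4 members, so the 0 says little. At least 2 immune markers had a UMI in 2 of the 31 (6.45%) and in 17 of the 472 (3.60%) with 1 to 4 members.

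**Figure D5:**
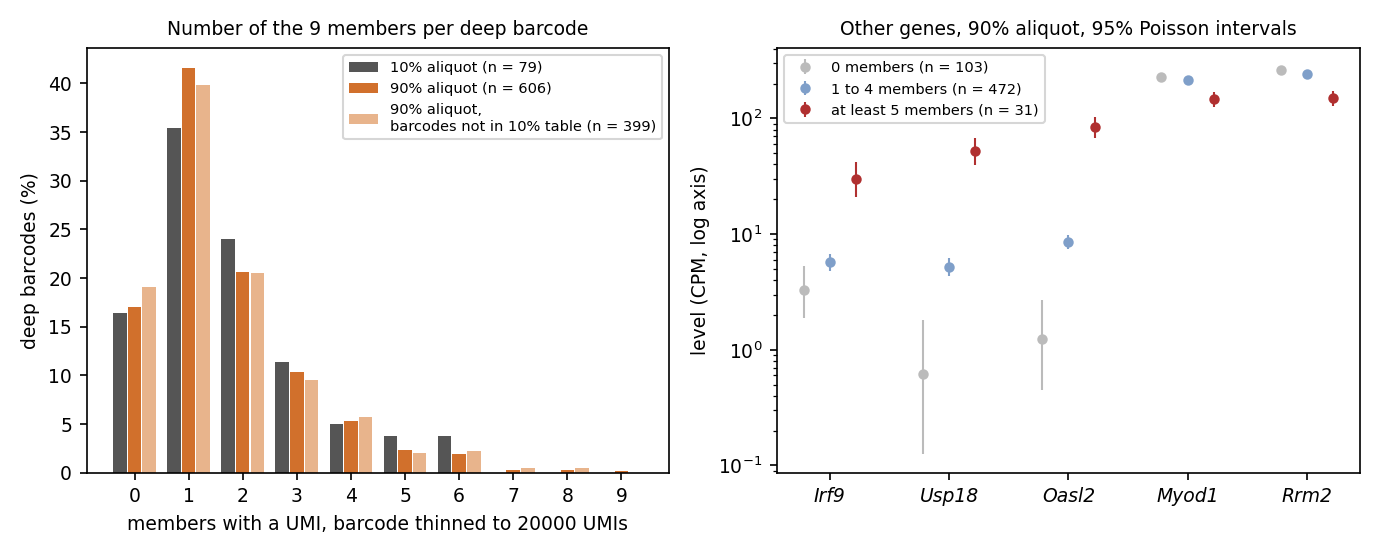
Left, share of deep barcodes in percent by the number of the 9 genes with a UMI after thinning to 20000 UMIs, for the 10% table, the 90% table and its unshared barcodes. Right, level in CPM (log axis, exact Poisson 95% intervals) of other genes in deep barcodes of the 90% table with 0, 1 to 4 and at least 5 members, where Irf9 goes from 3.28 through 5.70 to 30.0 CPM and Myod1 goes from 228 to 146 CPM.

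The 15 genes outside the list whose log2(UMI + 1) was most like that of the summed 9 genes, among 11477 genes with a UMI in at least 20 thinned deep barcodes of the 90% table, were Ifitm3 (r = 0.58), B2m (0.56), Oasl2 (0.49), Xaf1 (0.45), Rtp4 (0.45), Apol9a (0.44), Psmb8 (0.42), Apol9b (0.42), Zbp1 (0.41), Ly6e (0.40), Oas1a (0.40), H2-D1 (0.39), Gbp3 (0.39), Usp18 (0.38) and Oas1g (0.38). The median gene had r = 0.01 and the 99th percentile was 0.20. Before thinning, Bst2 gave 6049 of the 9223 UMIs of the summed genes in these barcodes, so the order leans on Bst2. No ranking without Bst2 was made. In the 10% table r of the same 15 genes was between 0.31 (Gbp3) and 0.63 (B2m). Apol9a and Apol9b, and Oas1a and Oas1g, are near-identical pairs whose reads may be split by the counting. Of the 15 genes 11 had a RefSeq promoter, and 7 of these held the ISRE-like letters, 6 of them at least 2 times.

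Other genes of the pathway were read from lists, as those at least 2-fold different in the same direction in both tables, where 13.8% of all genes were higher in shallow and 22% in deep barcodes. With 2 to 28 genes a list, these counts are given as a description. None of the 9 interferon ligand genes had 10 UMIs over both sets in each table. Of 5 receptor genes that did, Ifngr1 and Ifnar2, chains of the receptors for interferon gamma and for type I interferons, were higher in shallow barcodes (13.8% of all genes were). Ifnar2 was at 25.1 CPM in shallow and 9.02 CPM in deep barcodes of the 10% table and at 20.6 and 6.09 CPM in the 90% table. The partner chain Ifnar1 was at 8.97 and 8.04 CPM, and at 8.68 and 10.1 CPM, in the same order.

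Among the signalling genes, the kinases Jak1 and Jak2 were higher in shallow barcodes. Jak1 was at 86.1 and 19.6 CPM in the 10% table and at 83.5 and 23.9 CPM in the 90% table. Of 5 feedback genes, Socs3, Socs1 and Pias1 were higher in shallow barcodes and Usp18 in deep barcodes (13.8% and 22% of all genes were). Socs3, which encodes a suppressor of cytokine signalling, reached 78.9 CPM in shallow against 6.09 CPM in deep barcodes of the 90% table. Of 5 other interferon regulatory factor genes, Irf2, Irf8 and Irf5 were higher in shallow barcodes (13.8% of all genes were), but Irf5 fell short of 2-fold in unshared barcodes, at 3.97 and 2.38 CPM. Irf2, a competitor of IRF1, was at 41.3 and 11.6 CPM in the 10% table and at 42.8 and 11.6 CPM in the 90% table.

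Of 28 other antiviral effectors 5 were higher in deep barcodes (Ly6e, Tap1, Cmpk2, Dtx3l and Oasl1) and 1 in shallow barcodes (Herc6), where 22% and 13.8% of all genes were. These 6 were named after their values were seen. Ly6e, which encodes a membrane protein that limits virus entry, was at 35.9 and 161 CPM in the 10% table and at 37.4 and 175 CPM in the 90% table. Ifitm3, a membrane protein that stops virus fusion and the most abundant of the list, was at 597 and 1105 CPM, and at 647 and 1184 CPM, which falls short of 2-fold. Of 5 nucleic acid sensor genes none reached 2-fold in both tables, and of 6 GTPase genes only Gbp2 did, with 8.08 and 1.57 CPM, and 9.30 and 3.08 CPM.

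Of 15 antigen presentation genes 5 were higher in shallow barcodes (H2-K1, H2-Q4, Cd74, H2-Ab1 and H2-Aa) and 2 in deep barcodes (Psmb10 and Psme2, which encode parts of the immunoproteasome and its activator), where 13.8% and 22% of all genes were. The class I gene H2-K1 was at 109 and 36.3 CPM in the 10% table and at 130 and 34.4 CPM in the 90% table. The class II genes Cd74, H2-Ab1 and H2-Aa, which antigen-presenting cells express, were at 235, 203 and 169 CPM in shallow barcodes of the 10% table and at 3.38, 1.19 and 0.596 CPM in unshared shallow barcodes. Cd74 and H2-Aa are also among the immune markers. In the 10% table only 5 of 157 shallow barcodes had a UMI of any immune marker, and 1 had at least 2 of them. The shallow levels of Cd74 and H2-Aa there thus rest on at most 5 barcodes. Neither of the 2 chemokine genes with 10 UMIs, Ccl5 and Cxcl10, reached 2-fold in one direction in both tables.

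Long reads of the 10% aliquot were counted per isoform in the same barcodes. Over all genes they gave 1382498 UMIs in shallow barcodes, 1.24 times the short-read count, and 4628237 in deep barcodes, 0.908 times the short-read count. For the 9 genes the ratio was often higher. Irf7 had 85 long-read and 15 short-read UMIs in shallow and 227 and 89 in deep barcodes, Irf1 had 21 and 6, and 108 and 35, and Bst2 had 165 and 63, and 1157 and 1133. Bst2 was found by long reads alone in 26 shallow barcodes and by short reads alone in 4. Ifi27l2a was the exception, with 50 and 56, and 163 and 173 UMIs. The shallow-to-deep contrast of Bst2 was therefore smaller in long reads.

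Over both sets, 1 reference isoform held most long-read UMIs of Isg15 (Isg15-201, 394 of 410, 96.1%), Bst2 (Bst2-201, 1225 of 1322, 92.7%) and Ifi27l2a (Ifi27l2a-201, 194 of 213, 91.1%). Bst2 (chr8:71534255-71537456, minus strand, Gencode vM21) thus had 5 exons and 792 bases in its main isoform, and the remaining UMIs were spread over 10 isoforms without a reference name. Bst2-201 held 137 of 165 UMIs (83.0%) in shallow and 1088 of 1157 (94.0%) in deep barcodes. Of the other 28 UMIs in shallow barcodes, 13 were of an isoform at chr8:71535174-71537429. These 13 UMIs came from 3 barcodes, so that this difference rests on few barcodes.

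The UMIs of Irf7 and Irf1 were divided among more isoforms. For Irf7 (chr7:141262706-141266481, minus strand) 11 isoforms were counted and those with a reference name held 145 of 312 UMIs (46.5%). Irf7-201, which has 10 exons, held 104 (33.3%), the 9-exon Irf7-202 held 30 (9.62%), Irf7-210, annotated as a retained intron, held 11 (3.53%), and the most abundant of 6 isoforms without a reference name that share the ends chr7:141263183-141266421 held 65 (20.8%). Irf7-201 was 42 of 85 UMIs (49.4%) in shallow and 62 of 227 (27.3%) in deep barcodes. In the shallow set 50 of the 85 UMIs came from 1 barcode, so that this difference rests on few barcodes.

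For Irf1 (chr11:53770014-53778374, plus strand) Irf1-202 held 74 of 129 UMIs (57.4%), with 4 of 21 in shallow and 70 of 108 in deep barcodes. A shorter isoform without a reference name, chr11:53770051-53772280, held 28 of 129 (21.7%), with 10 of 21 in shallow and 18 of 108 in deep barcodes. Both isoforms were thus counted in both sets, in different proportions and from 9 and 24 barcodes with Irf1. The 4 UMIs of Irf1-202 in shallow barcodes all came from 1 barcode, so the shallow proportion rests on few barcodes.

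Ifit3-201 held 23 of 35 UMIs (65.7%). The UMIs of Ifit1 (33) and Rsad2 (48) were all counted under isoforms without a reference name, with 1 isoform for Ifit1 at chr19:34640883-34649480 and 43 of 48 for Rsad2 under 1 isoform with the ends chr12:26444510-26456431. For Iigp1 reference isoforms held 30 of 110 UMIs (27.3%), of which Iigp1-202 held 27. Most counted isoforms of these genes without a reference name have no entry in the deposited annotation, so their exons are not described here.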

How the data were processed

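Single-cell RNA of YFP-sorted mouse MuSCs was measured in 1 capture, with short reads in a 10% and a 90% aliquot and with long reads in the 10% aliquot. The authors made short-read UMI counts per gene and barcode with scPipe, and long-read UMI counts per isoform with FLAMES after alignment with minimap2 2.17 to mm10 with Gencode annotation (GRCm38.p6 and Cell Ranger 1.3 are also in the submitters' processing notes), and deposited these counts without normalization. An annotation file that the authors deposited gives no counts but other values, the positions of isoforms, and was used to see which counted isoforms it holds.

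The genes, the lists and the sets of barcodes were chosen with earlier results of these data known. No differences were tested, since cells of 1 capture are not replicates. Rows were matched to symbols through Gencode vM21 (mm10), and promoters came from RefSeq on GRCm38.p6. UMIs were summed per set of barcodes. Ratios have exact binomial 95% intervals, and a count of 0 was set at 3 UMIs of the set. Thinning drew UMIs without replacement (seed 31). A gene was called at 2-fold in the same direction in both tables with at least 10 UMIs over both sets in each. At most 4 genes per list were to be named, those with the most UMIs, and further names were chosen after their values were seen. The 15 most alike genes are those with the highest r. Isoforms were named only if they had at least 5 UMIs over both sets, and not all of those were named. No doublet caller was run. Scripts used Python 3.11.15 with numpy 2.4.6, pandas 2.3.3 and scipy 1.17.1, and were tested on simulated data. Alternatives changed the limits of the sets, the normalization, the thinning, immune-marked and shared barcodes and the barcodes used for isoforms. Sequence and position of 1 member (Iigp1) and the values of 1 signalling gene are not reported here.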

Additional observations from a re-analysis of the deposited data

How the results depend on the processing

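The log2 ratio of shallow to deep for the 9 genes together was -0.91 in the 10% and -0.51 in the 90% table. In the 10% and the 90% table, in that order, it was -1.80 and -1.22 with shallow barcodes of 3000 to 10000 UMIs, -2.15 and -1.56 against deep barcodes without UMIs of Rrm2, Top2a and Cdk1, -1.60 and -1.05 as a mean over barcodes, -1.47 and -0.92 without immune-marked barcodes, and -1.47 and -1.05 also without endothelial-marked ones, an alternative chosen after seeing the data. It changed sign without Bst2, to 0.045 and 0.47. In the 90% table it was -0.40 with deep barcodes of at least 30000 UMIs, -0.38 with no limit on cycling genes and -0.77 in unshared barcodes. Leaving out mitochondrial and ribosomal protein genes changed none of 20 ratios beyond its interval. Irf7 in the 90% table (0.47) changed sign to -0.12 with shallow barcodes of 3000 to 10000 UMIs, -0.47 against deep barcodes without cycling UMIs, -0.11 as a mean over barcodes, -0.21 without immune-marked barcodes and -0.60 also without endothelial-marked ones. Ifi27l2a in the 10% table (0.57) changed sign to -1.41, -2.57 and -1.21 in the first 3 of these. Bst2 stayed higher in deep barcodes in every alternative run. The share of deep barcodes with a member was 97.5% without thinning in the 10% table, and 91.1% without thinning and 35.0% at 2000 UMIs in the 90% table, where shallow barcodes had 15.5% and 9.17%. The share of deep barcodes with at least 5 members was 9.90% without thinning in the 90% table. The 8 isoform shares of named isoforms stayed within their intervals over all barcodes with at least 1000 UMIs. These barcodes include both sets, so most UMIs are the same and the comparison says little. The share of Irf1-202 was 49.7% of 157 UMIs there and 57.4% (48.4 to 66.0) of 129 UMIs in both sets. The cause of each change was not tested beyond what the alternative itself removes. Low counts limit the 10% table most, where Rsad2, Ifit3, Ifit1, Irf1 and Iigp1 had 2 to 6 UMIs in the 157 shallow barcodes. No paired analysis was possible because each aliquot is a single library and no test was run.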
